A study of Mus musculus with 43 samples.

Results

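Mitotic cells were picked from 4 single-cell RNA libraries of irradiated mouse intestinal organoids. A cell was counted as mitotic where Ccnb1, Cdc20, Ube2c, Nusap1 and Hmmr together held at least 8 of every 10000 UMIs (unique molecular identifiers, which count captured transcripts). By this rule 1282 of 12323 organoid cells were mitotic, among 15587 cells kept over all single-cell libraries. Cells were kept with at least 500 UMIs and at most 20% mitochondrial UMIs.

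The organoids, small epithelial cultures that form crypt-like buds, were primary intestinal cultures from WT C57BL/6 mice. All 4 libraries came from organoids given 4 Gy of ionising radiation (IR) on day 4 and collected on day 8, with 1 ng/mL TGFB1 for the last 6, 15 or 24 h or with vehicle for 24 h, called 0 h here. Each time is 1 library, so times were compared as levels, without a test. The 95% intervals given in brackets cover counting error only. They are exact Clopper-Pearson for shares of cells, exact Poisson for levels and log-normal approximations for ratios and folds. Bulk RNA of whole WT C57BL/6 organoids, with 2 ng/mL TGFB1 or vehicle for 24 h from day 6, came from cultures without irradiation taken on day 7 (D7 non-IR) and from cultures that had the 4 Gy dose, taken on day 7 (D7 IR) or on day 11 (D11 IR), with 3 libraries for each arm. Sorted Ki67-RFP+ crypt cells of Mki67tm1.1Cle/J mice, without irradiation or 56 h after 12 Gy to the whole body, gave a further 769 cells by the same rule.

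Entry into mitosis is driven by the kinase Cdk1 bound to cyclins A and B, and exit by the anaphase-promoting complex, a ubiquitin ligase that Cdc20 activates and that uses the ubiquitin-conjugating enzyme Ube2c to mark cyclin B for destruction. The genes of this machinery are transcribed together from G2 phase on, so a high sum of their transcripts covers late G2 as well as mitosis. In the intestine, division is the business of crypt stem cells and their progenitors, while enterocytes have left the cycle, and TGFB is known there as a brake on epithelial division that acts mainly in G1.

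The 5 transcripts of the rule stand for different steps. Ccnb1 encodes cyclin B1, Cdc20 and Ube2c serve the anaphase-promoting complex, Nusap1 bundles spindle microtubules and Hmmr helps to place and focus the spindle. Promoters of such genes often carry the cell cycle genes homology region (CHR), bound by the DREAM and MuvB complexes, beside CCAAT boxes, bound by NF-Y. The 150 bases before the start site are printed for the 5 genes, whose sum picked the mitotic cells, and for the kinase Cdk1, which is not part of the rule. Capitals mark the CHR words TTTGAA and TTCGAA and the word CCAAT, each on either strand (reversed, TTCAAA and ATTGG), with neighbouring words free to share bases. The sequences are RefSeq's for build GRCm38.p6, 5′ to 3′ in the direction of the gene, at chr13:100786487-100786636 (minus strand) for Ccnb1, chr4:118437344-118437493 (minus strand) for Cdc20, chr2:164769779-164769928 (plus strand) for Ube2c, chr2:119618148-119618297 (plus strand) for Nusap1, chr11:40733438-40733587 (minus strand) for Hmmr and chr10:69352913-69353062 (minus strand) for Cdk1.
Ccnb1: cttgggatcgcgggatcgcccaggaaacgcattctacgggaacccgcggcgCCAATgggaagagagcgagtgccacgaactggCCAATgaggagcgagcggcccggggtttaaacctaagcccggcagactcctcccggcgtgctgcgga
Cdc20: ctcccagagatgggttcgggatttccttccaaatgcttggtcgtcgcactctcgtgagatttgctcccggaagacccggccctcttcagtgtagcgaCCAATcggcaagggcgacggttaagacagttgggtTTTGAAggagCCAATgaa
Ube2c: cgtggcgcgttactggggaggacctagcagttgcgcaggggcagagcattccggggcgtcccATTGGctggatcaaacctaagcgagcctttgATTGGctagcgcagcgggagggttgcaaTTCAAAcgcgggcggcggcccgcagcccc
Nusap1: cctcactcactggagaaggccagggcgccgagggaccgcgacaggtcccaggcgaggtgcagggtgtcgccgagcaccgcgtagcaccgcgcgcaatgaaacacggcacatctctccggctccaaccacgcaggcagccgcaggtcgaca
Hmmr: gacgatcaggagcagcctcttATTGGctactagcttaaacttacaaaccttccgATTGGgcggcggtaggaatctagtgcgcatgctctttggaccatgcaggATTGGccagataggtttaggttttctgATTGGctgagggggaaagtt
Cdk1: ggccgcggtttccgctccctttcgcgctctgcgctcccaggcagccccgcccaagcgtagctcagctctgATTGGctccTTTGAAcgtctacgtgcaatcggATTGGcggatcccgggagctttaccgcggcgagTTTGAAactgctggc
In Cdc20 the CHR word began 18 bases before the start site, in Ube2c 29 bases before it, and in Cdk1 2 words began 71 and 15 bases before it. Ccnb1 held CCAAT words and no CHR word, the CHR word of Hmmr lay just after its start site, and neither word was found in the 300-base window of Nusap1. Over 71 promoters of 66 matched genes from a list of 79 mitosis genes, 74.6% held a CHR word in that window (250 bases before to 50 after the start), 73.2% held CCAAT and 62.0% held both. Over all 32851 mouse promoters in the table the shares were 19.2%, 37.4% and 7.52%. The 28 promoters of 25 matched S phase genes held a CHR word in 14.3% and CCAAT in 57.1%. A match is a description of the letters, and no binding was measured.

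The 331 mitotic cells at 0 h, 567 at 6 h, 272 at 15 h and 112 at 24 h carried a median of 12.1, 11.4, 12.1 and 11.9 UMIs of the 5 transcripts per 10000. The cells just inside the threshold stood at 8.00 to 8.02 per 10000 and those just outside it at 7.96 to 7.99. From 6 to 8 per 10000 there were 114, 207, 67 and 30 further cells in order of time, and from 8 to 10 there were 80, 167, 74 and 32, so the rule divides a continuous range. At least 4 of the 5 transcripts were detected in 79.8, 76.5, 79.8 and 79.5% of mitotic cells. Mitotic cells held 61.9, 61.5, 68.6 and 58.6% of all UMIs of the 5 transcripts, in 13.5, 15.9, 11.2 and 6.86% of all UMIs.

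Mitotic cells held more UMIs than the other cells of their library. Their median depth was 9963, 8404, 9846 and 17270 UMIs at 0, 6, 15 and 24 h, against 8025, 6516, 7610 and 10231 in the other cells, a ratio of 1.24, 1.29, 1.29 and 1.69. At 24 h, 39.3% of mitotic cells held over 2 times the median UMIs of the library, against 14.5% at 0 h, 13.1% at 6 h and 15.1% at 15 h. Scrublet, which looks for droplets with a pair of cells, called 50, 76, 39 and 7 cells doublets (1.71, 1.77, 1.35 and 0.316%), of which 4, 9, 6 and 0 were mitotic. Mitochondrial UMIs made up a median of 2.42, 2.65, 3.32 and 3.83% in mitotic cells and 3.05, 3.35, 4.51 and 4.89% in the others, and ribosomal protein UMIs 24.9, 23.9, 23.7 and 21.5% against 19.1, 18.4, 16.8 and 14.7%. Both measures moved with time in both classes, and their part in the differences between times was not tested. The libraries held 2.73e+07, 3.24e+07, 2.63e+07 and 3.06e+07 UMIs in kept cells and shared at most 1 barcode with any other library. Marker lists of immune cells (5 genes) and mesenchymal cells (5 genes) summed to 1.57 to 5.24 and 0.498 to 1.75 CPM (UMIs of a gene or list, scaled to a total of 1000000 UMIs in the class) in mitotic cells, with Cd3e, Cd79a and Pdgfra at 0 in all 4 libraries.

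The share of mitotic cells was highest at 6 h and lowest at 24 h of TGFB1. It stood at 11.3% of cells at 0 h (10.2 to 12.5), 13.2% at 6 h (12.2 to 14.3), 9.41% at 15 h (8.37 to 10.5) and 5.05% at 24 h (4.18 to 6.05). The interval at 24 h lies below those of the other 3 libraries, and those at 0 and 6 h overlap. Against 0 h the share was 1.17 times as large at 6 h (1.03 to 1.33), 0.834 times at 15 h (0.716 to 0.971) and 0.447 times at 24 h (0.364 to 0.550), and the 24 h share was 0.381 times that at 6 h (0.314 to 0.464). The order was the same at equal depth: with every cell thinned to 5000 UMIs and at least 4 marker UMIs required, the shares were 13.6, 17.0, 11.2 and 6.24%, with 516, 1180, 686 and 264 shallower cells left out. Thinning to 2500 UMIs with at least 2 marker UMIs gave 13.5, 16.6, 10.6 and 6.45%. The 6 h ratio is close to 1, and its interval reached 0.938 with the threshold at 10 per 10000 and 0.985 with Cdc20 left out of the sum. Leaving out Ube2c brought the 15 h ratio to 0.929 (0.788 to 1.09).

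**Figure D1:**
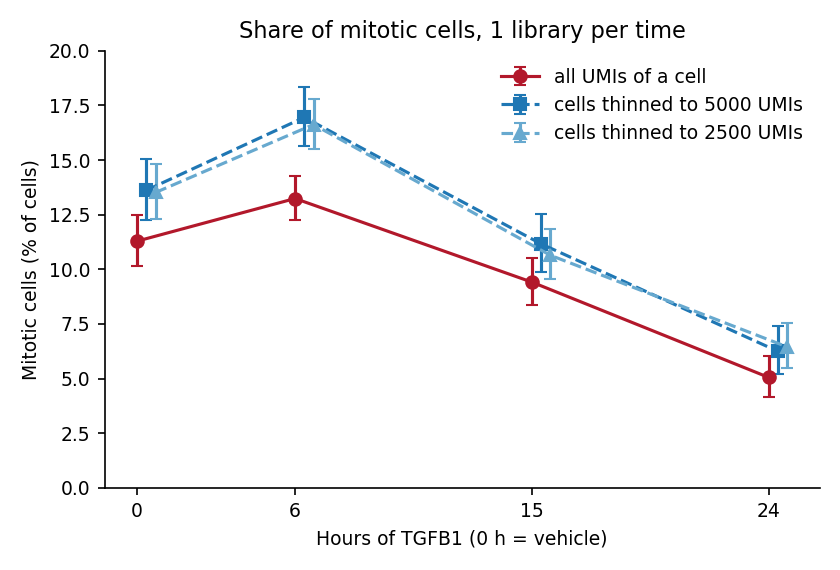
Share of mitotic cells (% of cells, vertical axis) against hours of TGFB1 (horizontal axis, 0 h is vehicle), with all UMIs and after thinning each cell to 5000 or 2500 UMIs. Points are 1 library each and bars are exact 95% intervals for counting error. In all 3 versions the share is highest at 6 h and lowest at 24 h, at 13.2 and 5.05% with all UMIs.

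The 5 transcripts were followed over whole libraries as well. They summed to 269 CPM over all cells at 0 h, 314 at 6 h, 207 at 15 h and 141 at 24 h. Among cells outside the rule, 70.0, 64.1, 76.8 and 75.4% held none of the 5. Their summed level there was 118 CPM at 0 h, 143 at 6 h, 73.0 at 15 h and 62.5 at 24 h, in the same order as over all cells.

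Mitotic cells carried the mitosis programme as a whole, beyond the transcripts that picked them. All 79 genes of the mitosis list, which leaves out the 5 markers, were higher in mitotic than in other cells in each of the 4 libraries, and 72 of the 76 with at least 20 CPM were at least 2-fold higher in all 4. Over all 6490 genes measured this way, 3.9% reached a 2-fold higher level in mitotic cells in all 4 libraries, and 6.27% a 2-fold lower one. Genes that share the cell cycle with the markers had to follow the rule, so these counts describe the cells and are no test. By role, all 18 mitotic kinases and cyclins, all 24 measured spindle and cytokinesis genes and all 11 chromosome structure genes passed 2-fold, with 14 of 15 centromere and kinetochore genes and 5 of 8 checkpoint and anaphase genes. The highest ratios outside the rule were those of Aspm, a spindle pole protein (8.16 to 17.997-fold over the 4 libraries), Cdc25b, the phosphatase that activates Cdk1 (7.41 to 11.5-fold), and Cenpf, a kinetochore protein (6.02 to 15.8-fold). As a whole, the list was 4.37, 3.63, 7.06 and 7.25 times as high in mitotic cells as in the others at 0, 6, 15 and 24 h.

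Genes of absorptive cells marked the other end. All 12 enterocyte genes were at least 2-fold lower in mitotic cells in all 4 libraries, and the list as a whole stood at 0.101, 0.0876, 0.0828 and 0.0650 of its level in other cells. Fabp1, a fatty acid carrier of enterocytes, was 16.5 to 36.4-fold lower, Reg3a, a secreted lectin, 26.4 to 36.0-fold lower, and Spink1, a trypsin inhibitor, 20.3 to 22.3-fold lower. Leap2, Reg1, Adh6a, Slc2a2 and Reg3b completed the 8 genes with the lowest ratios, none below 16.1-fold. Stem cell genes leaned the other way: 12 of 13 were higher in mitotic cells in all 4 libraries, 2 of 12 measured at least 2-fold. S phase genes were near the level of the other cells at 0 h (1.08 times), and 1 of 21 measured was 2-fold higher throughout.

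Within mitotic cells the level of the mitosis list hardly moved over the time course, at 11798 CPM at 0 h, 11240 at 6 h, 12115 at 15 h and 11852 at 24 h. The level at 24 h was 1.00 times that at 0 h (0.989 to 1.02). None of 78 measured genes differed 2-fold in either direction at 6, 15 or 24 h, and the median log2 fold of the list at 24 h was 0.08, against 0.02 over all genes. The same threshold was applied at each time, which holds genes that move with the markers near one level. Over 6818 genes measured, 1.61% lay 2-fold or more above the 0 h level and 0.821% as far below it at 6 h, over 6955 genes 3.36% and 1.71% at 15 h, and over 7105 genes 6.05% and 3.57% at 24 h. In cells outside the rule the mitosis list was at 2697, 3095, 1716 and 1635 CPM, which is 0.606 of the 0 h level at 24 h (0.599 to 0.613).

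Among the kinases and cyclins of mitotic cells, Cdk1 was at 270, 271, 267 and 277 CPM at 0, 6, 15 and 24 h. Plk1, the kinase that drives centrosome maturation and cytokinesis, was at 139 CPM at 0 h and 138 at 24 h, and Aurka, the spindle pole kinase, at 101 and 102. The 3 kinases thus stood within counting error of their 0 h level, while in other cells Cdk1 went from 51.0 to 27.0 CPM. Ccna2, cyclin A2, which acts in S phase and is degraded early in mitosis, was at 322, 286, 280 and 258 CPM, 0.801 of the 0 h level at 24 h (0.724 to 0.887). Ccnb2, cyclin B2, was at 152, 172, 202 and 175 CPM, highest at 15 h. Cks1b, a small subunit of cyclin-dependent kinases, was 1.38-fold higher at 24 h (1.24 to 1.55), and Mastl, the Greatwall kinase, went from 20.2 to 36.9 CPM, 1.83-fold (1.33 to 2.51).

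Checkpoint and anaphase genes as a list were at 1.09 times the 0 h level at 24 h (1.03 to 1.15). Mad2l1, which holds back Cdc20 at unattached kinetochores, was 1.18-fold higher (1.02 to 1.38), and Espl1, the separase that cuts cohesin, 1.34-fold (1.04 to 1.73). Centromere and kinetochore genes stood at 1.03 times (0.987 to 1.07). In this group Cenpe, a kinetochore motor, was 1.31-fold higher, Cenpf went from 216 to 271 CPM and Spc25 of the Ndc80 complex was 1.46-fold higher. Hjurp, the chaperone that loads the centromeric histone, went the other way, from 148 to 101 CPM (0.685, 0.585 to 0.803). Cenpa, that histone itself, was at 218 CPM at 0 h and 220 at 24 h.

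Spindle and cytokinesis genes were at 1.11 times the 0 h level at 24 h (1.07 to 1.15). Tacc3, which stabilises spindle microtubules, was 1.33-fold higher, Kif20a, a motor of the central spindle, 1.27-fold and Prc1, which bundles the midzone, 1.23-fold. Chromosome structure genes were at 0.923 times (0.899 to 0.948), and they moved apart. Top2a, the topoisomerase that untangles sister chromatids, went from 471 to 583 CPM (1.24-fold) and Lmnb1, lamin B1, from 187 to 252 CPM (1.35-fold). Hmgb2, a chromatin protein, went from 1960 to 1538 CPM (0.785) and Mki67, which coats mitotic chromosomes, from 402 to 333 CPM (0.830). All of these differences stayed under 2-fold.

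**Figure D2:**
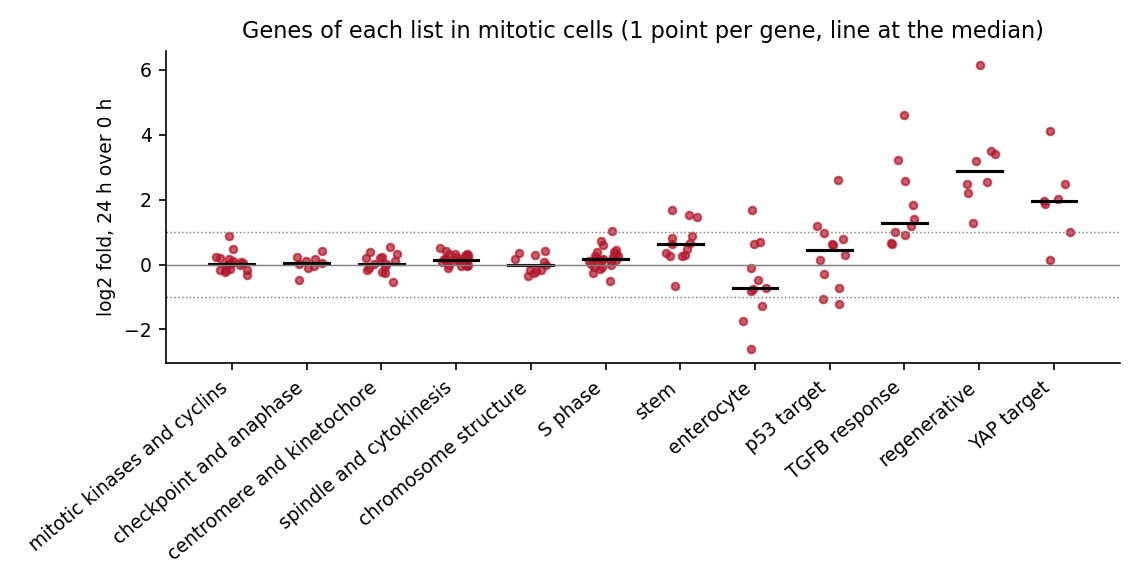
Log2 fold of 24 h over 0 h in mitotic cells (vertical axis) for single genes of 12 lists (horizontal axis), for genes with at least 20 CPM at either time and over 3 UMIs at 0 h. Each point is 1 gene, the bar is the median and dotted lines are 2-fold. The 5 mitosis lists at the left have medians between 0.00 and 0.15, and the regenerative list has a median of 2.88.

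S phase genes stood slightly higher at 24 h than at 0 h in mitotic cells and lower in the others. The list of 30 was at 1588, 1680, 1550 and 1794 CPM in mitotic cells at 0, 6, 15 and 24 h and at 1476, 1483, 833 and 1069 CPM in the others. The level at 24 h was 1.13 times that at 0 h in mitotic cells (1.08 to 1.18) and 0.724 times in the others (0.713 to 0.735). Pcna, the sliding clamp of DNA polymerase, went from 169 to 229 CPM in mitotic cells (1.36-fold) and Cdt1, which loads the replicative helicase, from 27.1 to 55.2 CPM (2.03-fold, 1.56 to 2.66), the single S phase gene of 24 measured past 2-fold. The Cdt1 fold was 1.46 where each cell counted equally, and 6.05% of all genes measured were 2-fold higher at 24 h. Tk1, thymidine kinase, went from 83.9 to 59.5 CPM.

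Of 12 measured regulators of G1, 1 stood 2-fold or more above its 0 h level in mitotic cells at 24 h and 3 as far below it. Over all 7105 genes measured the shares were 6.05% above and 3.57% below. Ccnd2, cyclin D2, was at 508 CPM at 0 h, 330 at 6 h, 149 at 15 h and 165 at 24 h. The 15 and 24 h libraries were both far below the first, and at 24 h the level was 0.325 of that at 0 h (0.290 to 0.364), against 0.484 in other cells (0.467 to 0.502). Id2 and Id3, inhibitors of helix-loop-helix factors that BMP and TGFB signals are known to control, were at 0.430 (0.326 to 0.566) and 0.379 (0.275 to 0.524) of their 0 h level. Cdkn1a, the p21 inhibitor of cyclin-dependent kinases, was at 42.6, 71.3, 53.3 and 96.5 CPM, 2.26-fold higher at 24 h (1.84 to 2.79). It was lower in mitotic than in other cells at every time, where it went from 120 to 153 CPM. Cdkn2b, the p15 inhibitor and a known TGFB target, was at 9.77, 9.70, 8.86 and 8.57 CPM in mitotic cells and went from 46.8 to 64.9 CPM in the others. Ccnd1, cyclin D1, was 1.25-fold higher and Myc was at 0.812 of its 0 h level in mitotic cells.

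The TGFB response was higher at each later time in mitotic cells, as it was in the cells outside the rule. The list of 16 was at 387, 888, 1106 and 1383 CPM in mitotic cells and at 353, 680, 855 and 1060 CPM in the others, 3.57-fold (3.35 to 3.81) and 3.00-fold (2.93 to 3.08) higher at 24 h than at 0 h. At least 2-fold higher were 4 of 9 measured genes at 6 h, 6 of 8 at 15 h and 7 of 11 at 24 h, and none was 2-fold lower. The shares of all genes 2-fold higher were 1.61, 3.36 and 6.05% at these times. Genes can enter the counts of list members through the later time alone, which favours higher folds. Pmepa1, a feedback inhibitor of TGFB signalling, was at 21.2, 250, 344 and 514 CPM in mitotic cells, 24.3-fold higher at 24 h (19.3 to 30.5). Skil, the SnoN repressor of SMAD proteins, was at 21.4, 86.7, 107 and 128 CPM, a 5.95-fold difference (4.63 to 7.65) against 3.42-fold in other cells (3.14 to 3.71). Both were already far above the 0 h level in the 6 h library. Smad7, the inhibitory SMAD, was 2.26-fold higher at 24 h, Bhlhe40, a helix-loop-helix repressor, 2.66-fold, and Itgb6, an integrin subunit that activates latent TGFB, 3.61-fold. Klf10, an early TGFB response factor, peaked at 15 h, at 56.5, 120, 136 and 106 CPM. The share of mitotic cells with at least 10 UMIs of the list per 10000 was 2.72, 37.7, 51.8 and 75% at 0, 6, 15 and 24 h, against 1.499, 18.5, 28.7 and 38.2% of other cells.

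Regenerative genes, those of the fetal-like state that intestinal epithelium takes on after injury, showed the widest differences over time. The list of 16 was at 584, 1056, 2166 and 4988 CPM in mitotic cells at 0, 6, 15 and 24 h, 8.54-fold higher at 24 h than at 0 h (8.16 to 8.95), and at 1104 to 5355 CPM in the others, 4.85-fold (4.79 to 4.92). All 9 measured genes of the 16 were at least 2-fold higher in mitotic cells at 24 h, as were 6.05% of all genes measured. Genes low at 0 h enter this count through the 24 h level alone, so it favours higher folds and is no test. Clu, clusterin, the marker of the revival stem cell state, was at 14.1 CPM at 0 h, 100 at 6 h, 394 at 15 h and 1005 at 24 h. Each library stood above the one before, and at 24 h the level was 71.2-fold that at 0 h (54.1 to 93.8), against 57.3-fold in other cells (51.3 to 64.1). The ratio of these folds was 1.24 (0.923 to 1.67), an interval that includes 1.

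The levels can also be read as shares of single cells. With each cell thinned to 5000 UMIs, at least 5 UMIs of Clu were found in 0 of 290 mitotic cells at 0 h, which allows a share of up to 1.03% (a limit of 3 cells), and in 1.97% at 6 h, 12.7% at 15 h and 41.7% at 24 h (32.1 to 51.9). In other cells the shares were 0.282, 1.29, 10.1 and 21.9% (20.02 to 23.8 at 24 h). The share without thinning, at 10 UMIs per 10000, was 0, 1.59, 11.8 and 42.9% in mitotic and 0.231, 1.08, 7.68 and 19.8% in other cells. Pmepa1 at the same thinned depth was found in 22.3% of mitotic and 10.4% of other cells at 24 h.

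S100a6, a calcium-binding protein of the fetal-like state, went from 153 to 1743 CPM in mitotic cells (11.4-fold, 10.4 to 12.5). Anxa2, annexin A2, was at 119, 213, 295 and 547 CPM, 4.58-fold higher at 24 h (4.10 to 5.11) against 2.48-fold in other cells (2.42 to 2.54). Anxa3 was 10.6-fold, Krt7, a simple keratin, 5.90-fold, S100a11 5.55-fold and Areg, an EGF receptor ligand, 2.42-fold higher. Anxa1 went from 2 UMIs (0.543 CPM) to 99.0 CPM. Ly6a, which encodes Sca1, a marker of fetal-like epithelium, remained low, at 0.543 CPM at 0 h and 5.71 at 24 h. Targets of the YAP pathway summed to 349, 457, 916 and 1222 CPM (3.50-fold, 3.28 to 3.75), most of it from Ccn1, a secreted matrix protein, at 234, 321, 701 and 903 CPM.

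**Figure D3:**
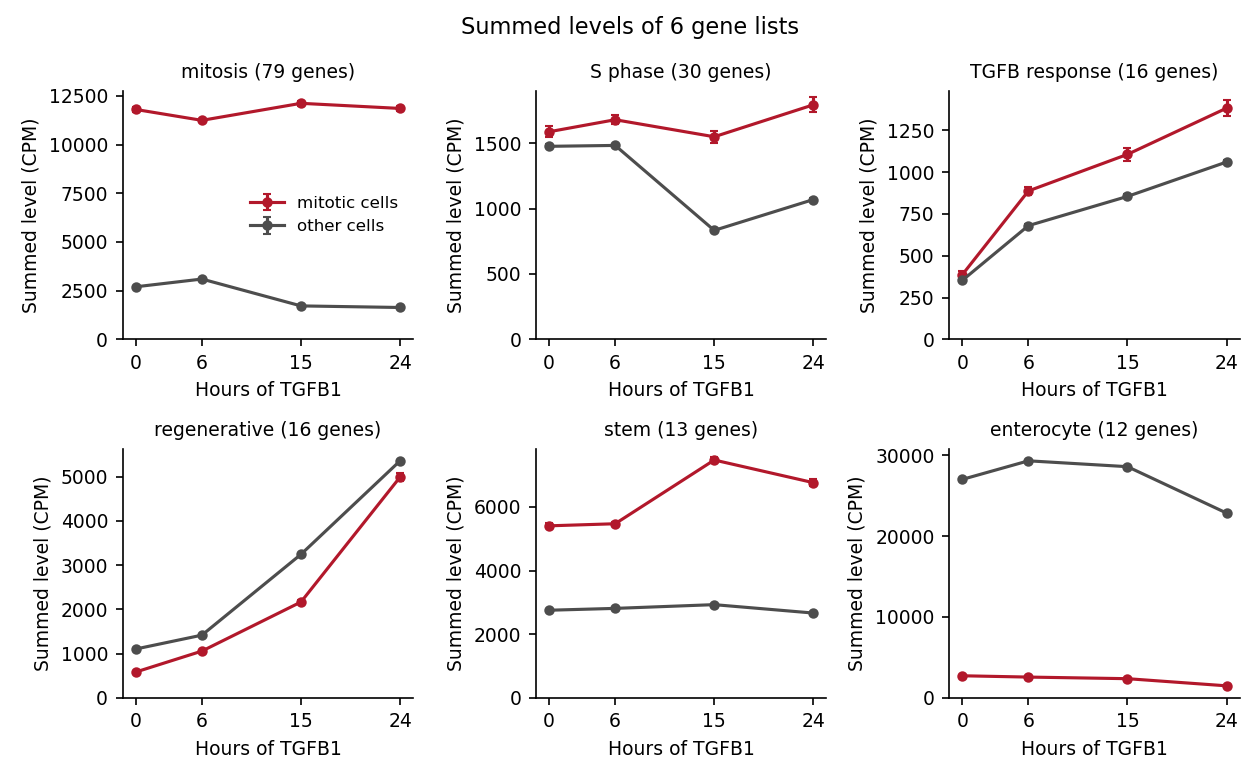
Summed level of 6 gene lists in CPM (vertical axes, from 0) against hours of TGFB1 (horizontal axes) in mitotic cells (red) and other cells (grey), with exact 95% Poisson bars. The mitosis list stays between 11240 and 12115 CPM in mitotic cells, and the regenerative list goes from 584 to 4988 CPM there.

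Stem cell genes were higher in mitotic cells at 15 and 24 h than at 0 h, and differed less in the other cells. The list of 13 was at 5406, 5471, 7474 and 6763 CPM in mitotic cells, 1.38-fold at 15 h and 1.25-fold at 24 h (1.22 to 1.28). In other cells it was at 2753, 2811, 2929 and 2665 CPM, 1.06-fold at 15 h (1.05 to 1.08) and 0.968-fold at 24 h (0.958 to 0.978). At least 2-fold higher at 24 h were 3 of 13 genes, beside 6.05% of all genes measured, with a median log2 fold of 0.63 for the list. Lgr5, the receptor that marks crypt stem cells, was at 51.1, 37.9, 77.0 and 94.6 CPM, 1.85-fold (1.52 to 2.26), against 0.980 in other cells (0.892 to 1.08). The 6 h library was the lowest and the 24 h library the highest. Olfm4, a secreted stem cell marker that made up most of the list, went from 3424 to 4172 CPM. Rnf43, a ubiquitin ligase that removes Wnt receptors, was 3.18-fold higher, Cd44, a hyaluronan receptor and Wnt target, 2.89-fold and Tnfrsf19 2.78-fold. Smoc2, also a stem cell marker, was at 0.637 of its 0 h level (0.574 to 0.708).

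Enterocyte genes, already low in mitotic cells, were lower still at 24 h. The list of 12 was at 2728, 2567, 2368 and 1485 CPM, 0.544 of the 0 h level at 24 h (0.523 to 0.567), against 0.846 in other cells (0.843 to 0.849). With each cell counted equally the mitotic value was 0.632. Of 11 measured genes 3 stood 2-fold or more below the 0 h level and 1 as far above it, beside 3.57% and 6.05% of all genes measured. Fabp1 was at 581, 562, 483 and 172 CPM in mitotic cells (0.297 of the 0 h level at 24 h) and Fabp2, a related carrier, at 471, 376, 178 and 77.1 CPM (0.164). Apoa1, an apolipoprotein, was higher in both classes, 3.21-fold in mitotic and 2.86-fold in other cells. At a depth of 5000 UMIs, at least 5 UMIs of Fabp1 were found in 12.8, 11.6, 5.26 and 3.88% of mitotic cells and in 62.6, 61.4, 60.6 and 58.2% of other cells. Free enterocyte RNA in the droplets also yields such counts, and its part was not tested.

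Targets of p53, which responds to DNA damage, summed to 704 CPM at 0 h, 859 at 6 h, 827 at 15 h and 868 at 24 h in mitotic cells. The 24 h level was 1.23 times that at 0 h, beside 1.24 times in other cells. Within mitotic cells single genes went both ways. Plk2 was 6.07-fold higher at 24 h (4.21 to 8.75), Ccng1, cyclin G1, was at 0.484 and Zmat3 at 0.432 of the 0 h level (0.656 with each cell counted equally). Of the secretory lists, Paneth cell genes were 2.28-fold higher in mitotic cells at 24 h (2.12 to 2.46) and 2.09-fold in other cells (2.04 to 2.15). Goblet cell genes were at 0.702 of their 0 h level in mitotic cells and at 1.00 in other cells. Agr2, a goblet cell chaperone, went from 92.5 to 21.4 CPM in mitotic cells (0.231, or 0.424 with the marker threshold at 6 per 10000). Enteroendocrine genes, which were 6.50-fold higher in other cells at 24 h, were 1.04-fold in mitotic cells (0.795 to 1.37).

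**Figure D4:**
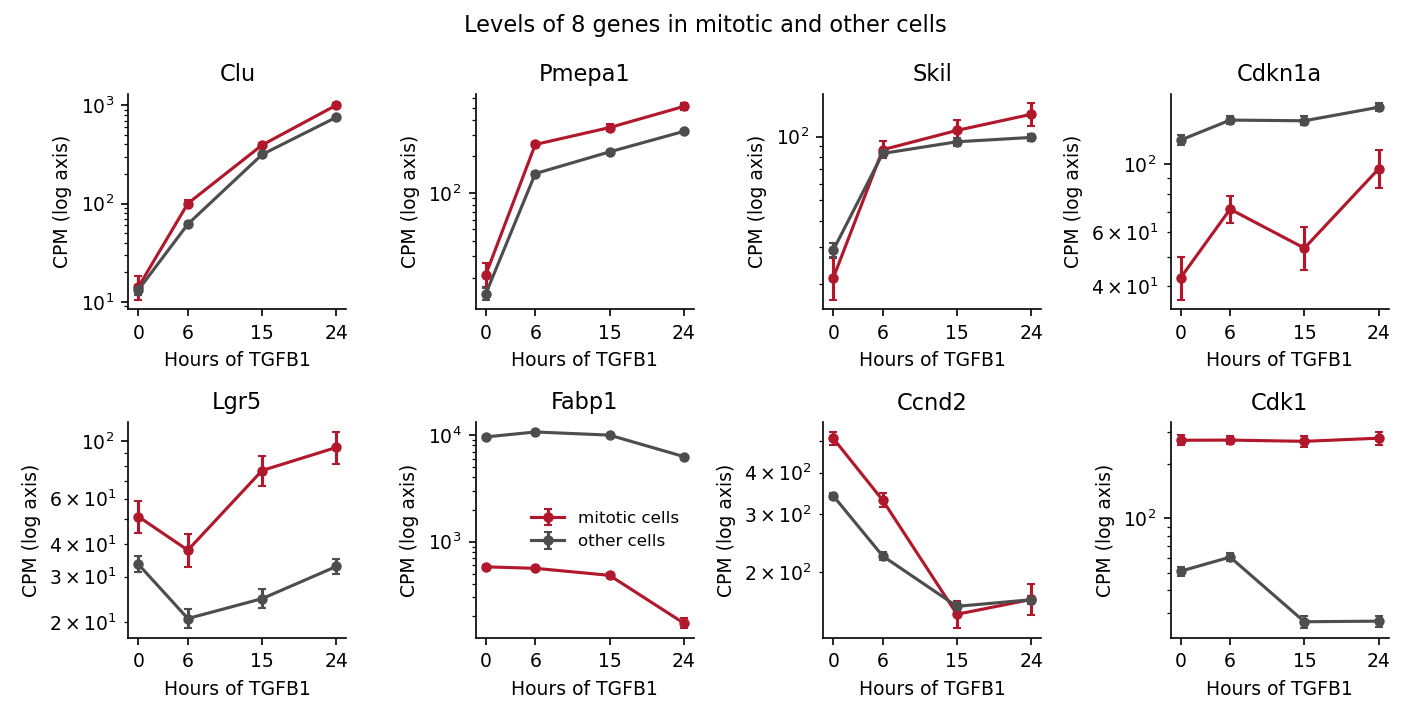
Levels of 8 genes in CPM (vertical axes, log scale) against hours of TGFB1 (horizontal axes) in mitotic (red) and other cells (grey), with exact 95% Poisson bars. Cdk1 stays at 267 to 277 CPM in mitotic cells, where Clu goes from 14.1 to 1005 CPM and Ccnd2 from 508 to 165 CPM.

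Of genes with at least 50 CPM, the 10 with the highest fold at 24 h in mitotic cells were Cym, Tnfrsf11b, Anxa1, Il1rn, Sprr2a1, Clu, Sprr2a2, Ctrb1, Tuba1a and Sprr2a3. Cym, which encodes the milk-clotting protease chymosin, had no UMI at 0 h and was at 3.10, 47.0 and 239 CPM at 6, 15 and 24 h, at least 294-fold higher at 24 h against a floor of 3 UMIs in the 0 h sum. Tnfrsf11b, the decoy receptor osteoprotegerin, also had none at 0 h and was at 90.4 CPM at 24 h, at least 111-fold higher. In other cells the pair reached 92.3 and 47.1 CPM. Il1rn, the interleukin-1 receptor antagonist, was at 0.733, 2.51, 9.47 and 67.8 CPM. Ctrb1, chymotrypsinogen B, was at 2.99, 33.0, 129 and 182 CPM in mitotic cells, 61.1-fold higher at 24 h (33.5 to 111), and at 91.6 to 987 CPM in others. Sprr2a1, Sprr2a2 and Sprr2a3, near-identical small proline-rich genes, share reads, so their single values are uncertain.

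The 10 lowest were Gstm3, Cth, Otc, Arg2, Cyp2c65, Gvin2, Gvin1, Sult1d1, Gvin-ps3 and Fabp2, several of them metabolic enzymes of the differentiated epithelium. Gstm3, a glutathione transferase, was at 151, 80.4, 25.9 and 11.0 CPM, 0.0724 of the 0 h level at 24 h (0.0477 to 0.1098), against 0.281 in other cells (0.271 to 0.291). Cth, cystathionine gamma-lyase, was at 163, 69.2, 36.5 and 13.3 CPM and Otc, ornithine transcarbamylase of the urea cycle, at 113, 95.2, 44.7 and 12.4 CPM. All 3 were lower at each later time. Sult1d1, a sulfotransferase, was at 0.139 of its 0 h level, and at 0.238 with the marker threshold at 6 per 10000. The Gvin genes share reads with each other and are uncertain.

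The fold at 24 h differed most between mitotic and other cells, on the high side, for Il1rn, Sprr2a2, Sprr2a1, Anxa1 and Ctrb1, each of which started from under 25 CPM in mitotic cells. On the low side stood Slc26a3, Sult1d1, B4galnt1, Cyp2c65 and Arg2. Slc26a3, the chloride exchanger of mature enterocytes, was at 50.5, 33.8, 17.0 and 9.99 CPM in mitotic and 127, 138, 140 and 133 CPM in other cells. Its fold was 0.190 times as large in mitotic cells (0.121 to 0.299). B4galnt1, a ganglioside synthase, was at 137, 78.2, 41.6 and 27.1 CPM in mitotic and 125, 98.6, 109 and 117 CPM in other cells, 0.211 times (0.160 to 0.279).

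The deep mitotic cells at 24 h were also set aside. Without cells of over 2 times the median UMIs of their library, 283, 493, 231 and 68 mitotic cells remained. The 24 h folds over 0 h were then 1.01 for the mitosis list, 3.83 for the TGFB response, 7.86 for the regenerative list, 1.24 for the stem list and 0.553 for the enterocyte list, and Clu was 64.4-fold higher. Lgr5 was 2.26-fold higher without them.

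To set mitotic cells beside the cells most like them, non-mitotic cells with at least 20 UMIs of the S phase list per 10000 were taken, a comparison added after the data were seen. There were 630 at 0 h, 896 at 6 h, 249 at 15 h and 263 at 24 h, or 21.5, 20.9, 8.62 and 11.9% of cells, and 191, 332, 103 and 97 cells lay between 15 and 25 per 10000. Their share was 0.974 of the 0 h share at 6 h, 0.401 at 15 h (0.349 to 0.460) and 0.552 at 24 h (0.483 to 0.630), lowest at 15 h, whereas the mitotic share was lowest at 24 h. For each such S-phase-high cell there were 0.525, 0.633, 1.09 and 0.426 mitotic cells. After thinning to 5000 UMIs their shares were 21.98, 21.8, 10.8 and 12.8%, and 15 h remained the lowest with thresholds of 15 and 30 per 10000 (10.7 and 5.67%). Of the mitotic cells, 79, 168, 71 and 32 in order of time also reached 20 per 10000 and stayed in the mitotic class. The classes thus overlap in their S phase transcripts.

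Clu was at 21.1, 116, 681 and 1437 CPM in S-phase-high cells, above its level in mitotic cells at each time. The regenerative list was 9.15-fold higher at 24 h (8.86 to 9.45), the TGFB response 4.34-fold (4.14 to 4.55) and the stem list 1.18-fold (1.16 to 1.20), beside 8.54, 3.57 and 1.25-fold in mitotic cells. Ccnd2 went from 616 to 379 CPM (0.615, 0.582 to 0.650), beside 0.325 in mitotic cells. Lgr5 was 1.33-fold higher (1.16 to 1.52), against 1.85-fold in mitotic cells. Skil was 5.84-fold higher (4.86 to 7.02) and Pmepa1 29.3-fold (24.6 to 34.8) in S-phase-high cells, so their wide folds were not particular to mitotic cells. The enterocyte list was also low in S-phase-high cells, at 2783 CPM at 0 h beside 2728 CPM in mitotic cells. At 24 h it was at 0.622 of that level (0.606 to 0.638), beside 0.544 in mitotic cells. Fabp1 was at 0.437 of its 0 h level (0.412 to 0.463), beside 0.297. None of these contrasts between classes was tested, since each time is 1 library.

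In bulk RNA of whole organoids, mitosis genes fell with TGFB1 at day 7 and moved little at day 11. At D7 IR 78 of 79 fell and none rose by limma (adjusted p under 0.05), 68 of them at least 2-fold, with a median log2 fold change of -1.52 against -0.03 over all 11258 genes tested. There 39.7% of all genes were called lower and 35.8% higher. At D7 non-IR 76 fell and 3 rose, with 19 down at least 2-fold and a median of -0.87 (all genes -0.02), among 34.9% of all genes called lower and 33.3% higher. At D11 IR 10 fell, 26 rose and 43 passed in neither direction, none at 2-fold, with a median of 0.10 (all genes 0.01), among 31.6% called lower and 32.3% higher, so the share of mitosis genes that rose there is close to that over all genes. In whole organoids, fewer mitotic cells and less RNA per mitotic cell cannot be told apart. The labels do not say whether the 3 libraries of a group come from separate cultures, so p-values measure the spread between these samples, which may be technical.

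Ccnb1 stood at 14.7, 14.5 and 14.2 FPKM (fragments per kilobase of transcript, scaled to library size) in the D7 IR vehicle libraries and at 3.68, 4.20 and 3.10 with TGFB1. The groups do not overlap, and the log2 fold change was -1.74 ± 0.08 (SE, n = 3 per group, limma adjusted p = 1.45e-08). Cdc20 went from 63.4 ± 1.67 to 17.3 ± 0.417 FPKM (SD, n = 3), Ube2c from 379 ± 1.76 to 102 ± 11.2, Nusap1 from 24.7 ± 0.638 to 7.84 ± 0.850 and Hmmr from 15.2 ± 0.730 to 2.83 ± 0.611. The largest of the 5 changes was that of Hmmr, at -2.09 on the log2(FPKM + 1) scale. Mki67 went from 56.6 ± 1.34 to 11.4 ± 1.503 FPKM. By role, all 18 kinases and cyclins, all 15 centromere and kinetochore genes, all 25 spindle and cytokinesis genes and all 12 chromosome structure genes fell at D7 IR, as did 8 of 9 checkpoint and anaphase genes. The exception was Zwint, a kinetochore protein, at a log2 fold change of 0.06 (limma adjusted p = 0.395).

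Without irradiation the changes at day 7 were smaller in size. Ccnb1 was at 18.4, 18.4 and 18.5 FPKM with vehicle and 7.71, 8.12 and 7.55 with TGFB1, a log2 fold change of -1.15. The other 4 markers fell by 0.93 to 1.29 on the log2 scale. Lmnb1, Cdc16 and Zwint rose, by 0.10, 0.15 and 0.37. The difference between irradiated and non-irradiated organoids was not tested, because the tables were normalised separately. S phase genes fell too, 30 of 30 at D7 IR and 24 of 30 at D7 non-IR, where 2 rose. Among all genes 39.7% were called lower at D7 IR and 34.9% at D7 non-IR, where 33.3% were called higher.

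At D11 IR, 4 days after the TGFB1 was taken off, Cdc20 was at 59.8, 68.0 and 60.3 FPKM in vehicle and 88.5, 90.6 and 81.2 in TGFB1 libraries. It rose by 0.46 ± 0.08 (log2, SE, n = 3 per group, limma adjusted p = 0.000819). Ccnb1 rose by 0.23 (limma adjusted p = 0.0270) and Nusap1 had a log2 fold change of -0.24 (limma adjusted p = 0.0403). Without any filter on low values neither call held (limma adjusted p = 0.0835 and 0.174). The Ccnb1 call was lost without vehicle replicate 1 or 3 or TGFB1 replicate 1 or 2 (limma adjusted p = 0.0537, 0.0605, 0.0675 and 0.120), and the Nusap1 call without vehicle replicate 1, 2 or 3 or TGFB1 replicate 3 (limma adjusted p = 0.0863, 0.0662, 0.0680 and 0.149). Ube2c and Hmmr, whose groups overlap, were at 0.06 and 0.08 (limma adjusted p = 0.683 and 0.406), and Ube2c reached 0.28 under quantile normalisation (limma adjusted p = 0.00834). Spindle and cytokinesis genes held 13 of the 26 that rose. Of the 25 genes in that list 4 fell and 8 passed in neither direction, where 32.3% of all genes were called higher. Among those that rose, Kif23, a motor of the midbody, went from 25.6 ± 1.21 to 49.2 ± 1.64 FPKM. Anln, the actin binder of the cleavage furrow, went from 11.9 ± 1.78 to 21.96 ± 1.64. Of 30 S phase genes 10 fell and 6 rose, beside 31.6% of all genes called lower and 32.3% called higher. The share of S phase genes that fell is thus close to that over all genes. Of the 79 mitosis genes, 35 were lower in all 3 TGFB1 libraries at D7 IR and higher in all 3 at D11 IR, a pattern found in 10.7% of all 11053 genes tested on both days. A further 16 were lower in all of them on both days, as were 18.2% of all genes. At D7 IR alone 78 of the 79 were lower in all 3 TGFB1 libraries. Limma called 39.7% of all genes lower at D7 IR, and the share of all genes without overlap on that day alone was not counted.

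**Figure D5:**
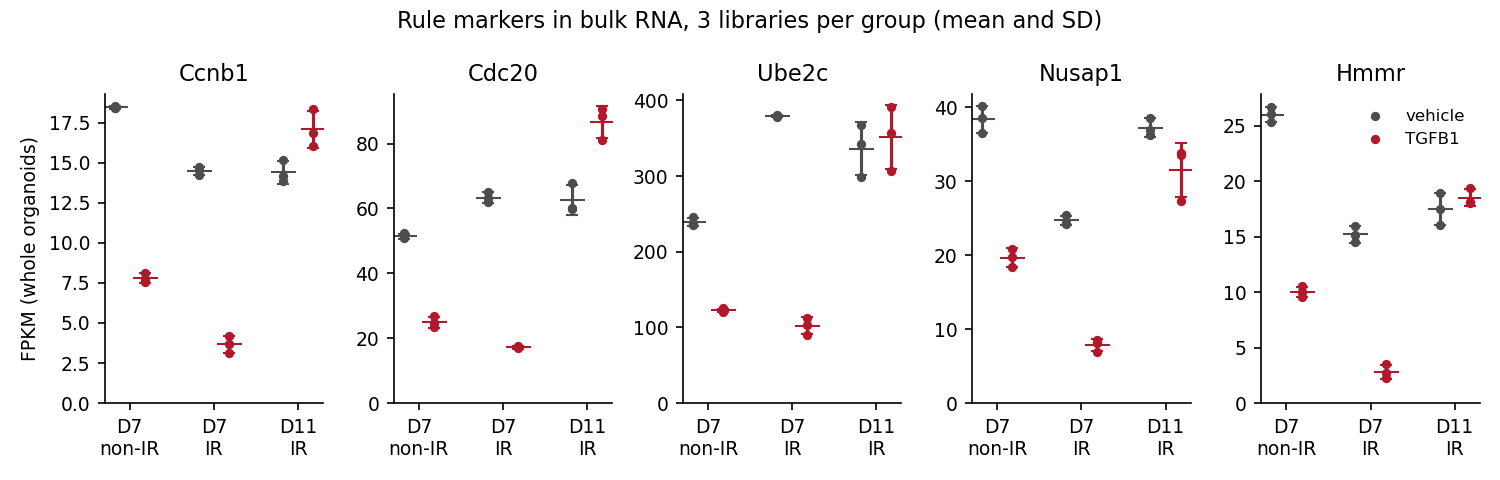
FPKM of the 5 markers in whole organoids (vertical axes, from 0) for D7 non-IR, D7 IR and D11 IR organoids (horizontal axes), with vehicle in grey and TGFB1 in red. Points are libraries, 3 per group, and bars give mean and SD. At D7 every TGFB1 library lies below every vehicle library for all 5 genes, and at D11 Cdc20 lies above (86.8 against 62.7 FPKM on average).

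Ccnd2, Cdkn1a and Lgr5, whose levels differed over time in mitotic cells, were also read in the bulk tables. Ccnd2 fell from 90.3 ± 1.63 to 28.3 ± 1.53 FPKM at D7 IR, a log2 fold change of -1.64, and by 0.60 on the log2 scale at D7 non-IR. Its level at D11 IR was 122 FPKM with vehicle and 118 with TGFB1 (limma adjusted p = 0.667). Cdkn1a rose by 0.94 at D7 IR and 1.03 at D7 non-IR (log2). Lgr5 fell in all 3 conditions, by 1.21 at D7 IR, 0.38 at D7 non-IR and 0.99 at D11 IR, while in mitotic cells at D8 it was 1.85-fold higher after 24 h. The doses and days of the bulk and single-cell experiments differ, so the values stand side by side and were not compared.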

How the data were processed

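For single cells the authors deposited expected counts, that is UMIs per gene and cell, fractional where a UMI was shared between genes (8.06 to 11.8% of UMIs in the organoid libraries). They were made with PIPseq T2 chemistry, per the labels' protocols. For bulk RNA the authors deposited FPKM, with 1 table for each condition. STAR 2.7.10a, STARsolo, Salmon 1.4, TopHat2 2.1.0, Cuffnorm and Cuffdiff 2.2.1 are named in the submitters' processing notes without their roles, so which of them made which file cannot be stated. The read depth behind the FPKM is unknown.

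UMIs were summed per class and library, unrounded, with no count model (Python 3.11.15, scanpy 1.11.5 with Scrublet). A gene counted as measured with at least 20 CPM in the higher of the sums compared. FPKM were tested as log2(FPKM + 1) with limma 3.58.1 (trend, robust, R 4.3.3, two-sided) in each table by itself, for genes averaging 1 FPKM or more, with Benjamini-Hochberg adjustment and a threshold of 0.05. The test was checked on simulated data. Members and gene lists were chosen with earlier results of these data known. Genes named are the 5 markers, list members by role, the 10 highest and 10 lowest folds of 24 h over 0 h among genes of at least 50 CPM (mitochondrial, ribosomal protein and Gm genes left out), the 8 highest and 8 lowest ratios of mitotic to other cells, and the 5 each way whose fold differed most between both. Alternatives were the marker threshold, thinning, cell filters, doublet calls, scaling, pseudocount, low-value filters and each replicate left out. S-phase-high cells, shares of cells for single genes and the removal of deep cells were added after seeing the data. ATAC libraries were not used here.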

Additional observations from a re-analysis of the deposited data

Results flagged for a closer look

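In bulk RNA, Ccnb1 and Cdc20 moved in opposite directions at the 2 collection days of irradiated organoids. With TGFB1 every D7 IR library lay below every vehicle library, and every D11 IR library lay above. The log2 changes were -1.74 at D7 IR and 0.23 at D11 IR for Ccnb1, and -1.82 and 0.46 for Cdc20. In all, 35 genes of the mitosis list were lower in all 3 D7 IR and higher in all 3 D11 IR libraries with TGFB1, led by Kif23 (-0.85 and 0.92), Anln (-1.30 and 0.83) and Cks1b (-0.81 and 0.79). Over all 11053 genes tested on both days 10.7% showed this pattern, and 16 mitosis genes were lower on both days. At D7 IR alone 78 of the 79 were lower without overlap, so the count of 35 rests in good part on that day. Limma called 39.7% of all genes lower at D7 IR, and the share of all genes without overlap on that day alone was not counted. At D11 IR limma called 26 of the 79 higher, close to the 32.3% of all genes. Some of the 35 changed little there, such as Dlgap5 (0.08). The difference between the days was not tested, since the tables were normalised separately.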

How the results depend on the processing

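With 1 library per time, the single-cell values carry counting error only, and no spread between cultures is known. The shares of mitotic cells kept their direction in 36 of 36 alternative values, with the 24 h ratio to 0 h between 0.417 and 0.477. Of 30 alternative values for gene lists 12 moved beyond counting error, none to the other side of 1 except the mitosis list, which stayed close to 1. Median-ratio scaling gave 0.972 for the mitosis list and 1.21 for the stem list. Counting each cell equally gave 0.984 for mitosis, 1.06 for S phase, 1.14 for stem and 0.632 for enterocyte genes. A threshold of 10 per 10000 gave 1.18 for S phase, 1.13 for stem and 0.475 for enterocyte genes, and a threshold of 6 gave 8.997 for regenerative and 1.21 for stem genes. Leaving out doublet calls gave 0.573 for enterocyte genes. Among 270 alternative values for named genes 22 moved and none was reversed. The causes were not tested.

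In bulk RNA, requiring 2-fold left 0 called mitosis genes at D11 IR and 19 lower ones at D7 non-IR. Without single replicates the counts ranged from 28 to 42 at D11 IR, from 76 to 78 at D7 IR and from 76 to 76 at D7 non-IR. Of 180 alternative values for the 5 markers 10 lost and 1 gained a call, all at D11 IR. With a replicate block the counts were 35 at D11 IR, 76 at D7 IR and 76 at D7 non-IR, against 36, 78 and 76 without it. Same-numbered libraries correlated at -0.0856, -0.0252 and 0.0947 at D11 IR, 0.0745, 0.213 and 0.0237 at D7 IR and -0.0288, 0.162 and 0.0475 at D7 non-IR, so the numbers were not taken as pairs.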

Other observations

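Sorted Ki67-RFP+ crypt cells give the same class of cell in the mouse. By the marker rule, 486 cells of the library without irradiation were mitotic, 26.3% of its cells (24.3 to 28.4), and 148 and 135 cells of the 2 libraries taken 56 h after 12 Gy, or 20.6% (17.7 to 23.7) and 19.3% (16.5 to 22.4). At equal depth the order depended on that depth: the shares were 27.8, 24.2 and 22.9% with cells thinned to 5000 UMIs, and 29.1, 30.3 and 30.6% at 2500 UMIs, where the irradiated libraries are no longer the lower ones. Clu was at 0.383 CPM (3 UMIs, 0.0790 to 1.12) in mitotic cells of the first library and at 55.1 and 55.9 CPM in those of the irradiated ones. The regenerative list was at 307 CPM without irradiation and at 3503 and 4307 CPM after it, and p53 targets were at 455, 1260 and 1963 CPM. Cells outside the rule differed in the same direction, so these levels are not particular to mitotic cells. They held Clu at 0.223, 48.2 and 79.1 CPM, the regenerative list at 387, 3551 and 4968 CPM and p53 targets at 467, 1330 and 1821 CPM. In mitotic cells the TGFB response list was at 372, 492 and 533 CPM, S phase genes at 1453, 2463 and 2203 CPM and stem cell genes at 2378, 1977 and 1551 CPM. Enterocyte genes were at 2703, 442 and 637 CPM and the mitosis list at 11519, 9652 and 9036 CPM. In cells outside the rule the mitosis list went the other way, at 4083, 5281 and 4768 CPM. With 1 library on one side, these levels were not tested.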
